A study of Mus musculus with 67 samples.

Results

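Chromatin accessibility of dorsal-most ventral neural progenitors (p0-1 NPs) was compared between day 4 and day 5 of differentiation, the interval of a single day that follows the exit from the neuromesodermal progenitor (NMP) stage. The members were the p0-1 samples of these days: 6 from day 4 and 6 from day 5, which is 12 of the 67 samples of the series. On each day 3 samples came from 0 nM SAG and 3 from 10 nM, and the SAG concentration was a covariate of the comparison. All came from HM1 mouse embryonic stem cells without a genetic change named in the labels, which were taken through an FGF and Wnt-activated NMP stage to day 3 and then kept in retinoic acid with or without SAG, an agonist of Smoothened that stands in for sonic hedgehog (Shh). Cells were fixed, transposed with Tn5, stained for transcription factors and sorted, so that accessibility was read in a gated population (CaTS-ATAC). The p0-1 gate took SOX2+ PAX6+ cells without NKX6.1, and it holds p0 and p1 progenitors together. In such bulk samples, fewer accessible cells and less accessibility per cell cannot be told apart.

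Progenitors of the ventral neural tube are arranged in domains that differ in the transcription factors they carry, and p0 and p1 lie farthest from the source of Shh. PAX6, IRX3 and the DBX homeodomain proteins are typical of these domains, and they give rise to V0 and V1 interneurons. Accessible elements mark promoters and enhancers at which nucleosomes have been displaced. Independently of their position, neural tube progenitors also pass through an early and a late phase, in which LIN28 and other early factors give way to NFI, SOX9 and other late factors before gliogenesis.

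Accessibility was given as a normalized count, the number of reads in an element divided by the size factor of its sample. Of the 111638 elements in the values, 30628 averaged more than 100 normalized counts over the 12 samples and were tested. Between days 4 and 5, 1301 elements became more accessible and 169 less accessible, at an adjusted p under 0.01 and a log2 fold change of the mean normalized counts beyond 2 in absolute size (fold 4), 4.25% and 0.552% of those tested. At the lower limit of 1 (fold 2) the counts were 3908 higher and 1082 lower, 12.8% and 3.53%. The samples of the days did not overlap at 7016 of all tested elements, 22.9%, and at 1297 of the 1301 higher and 167 of the 169 lower elements. Same-numbered samples of a day deviated together; with these averaged, 3 against 3, the counts were also 1301 and 169.

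The balance between gains and losses moved with the base composition of the libraries. Elements that became more accessible had a median GC content of 44.1% and those that became less accessible 47.5%, against 53.0% for all tested elements. With each sample corrected for GC content, 707 elements were higher and 335 lower beyond a log2 fold change of 2, which brings the share of higher elements from 88.5% to 67.9%. At the limit of 1 the corrected counts were 2545 and 1858, 8.31% and 6.07% of the tested elements, and the share of higher elements went from 78.3% to 57.8%. Of the 1301 higher elements, 707 were called at the same limit after the correction and 1260 at the limit of 1; of the 169 lower ones, 168 and 169 were. Centring each sample on its median, which lowered the median log2 fold change of all tested elements by 0.20, gave 961 and 249 (79.4% higher) and, at the limit of 1, 3005 and 1763 (63.0% higher).

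Read depth in elements was 15763186 to 21532874 reads at day 4 and 19537238 to 28424039 at day 5. The first principal component, with 70.8% of the variance, separated the days. Replicates of a group had r2 of 0.879 to 0.969, the lowest in the day 4 group at 10 nM, whose replicate 3 stood apart on GC content (r = 0.73 between its deviation and the GC content of elements, against -0.50 to 0.43 in the other day 4 samples and -0.47 to -0.05 at day 5). Without that sample 1306 elements were higher and 163 lower beyond a log2 fold change of 2.

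**Figure D1:**
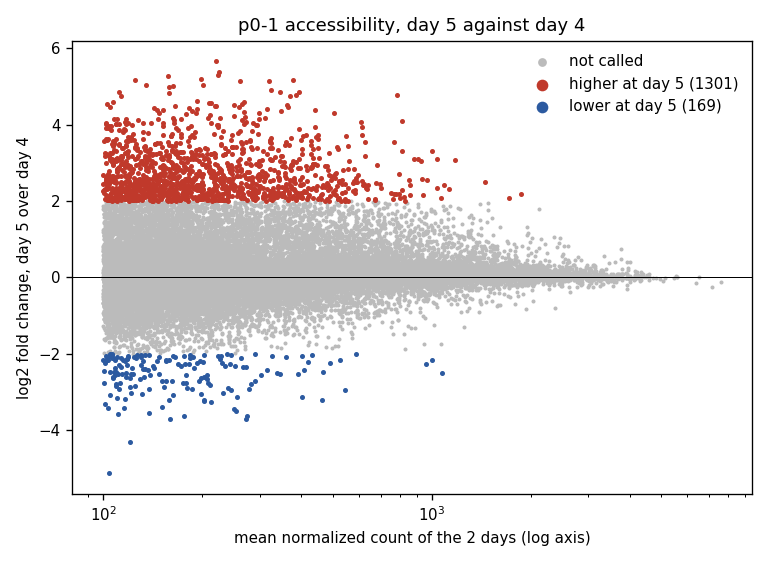
Each point is an element tested between day 4 and day 5 in p0-1 NPs, with the mean normalized count of the days on a log axis and the log2 fold change, day 5 over day 4, on the vertical axis. Red and blue points are the 1301 higher and 169 lower elements; the red points outnumber the blue ones.

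The sequences below are the central 300 bp of 7 elements, on the plus strand of GRCm38, the build of the deposited mm10 coordinates. They show some of the largest gains and losses, and elements whose day change differed between p0-1 and another NP type. Capitals mark matches, on either strand, to 17 short motifs, spelled out beside the motif shares below.
Sox3 element, gained, chrX:60731287-60731586: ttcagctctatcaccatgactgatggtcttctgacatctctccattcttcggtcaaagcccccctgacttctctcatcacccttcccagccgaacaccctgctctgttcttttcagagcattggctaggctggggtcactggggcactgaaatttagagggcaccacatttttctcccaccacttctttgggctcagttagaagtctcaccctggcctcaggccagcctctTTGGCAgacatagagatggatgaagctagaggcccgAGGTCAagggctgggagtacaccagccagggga
Npas3 element, gained, chr12:53536901-53537200: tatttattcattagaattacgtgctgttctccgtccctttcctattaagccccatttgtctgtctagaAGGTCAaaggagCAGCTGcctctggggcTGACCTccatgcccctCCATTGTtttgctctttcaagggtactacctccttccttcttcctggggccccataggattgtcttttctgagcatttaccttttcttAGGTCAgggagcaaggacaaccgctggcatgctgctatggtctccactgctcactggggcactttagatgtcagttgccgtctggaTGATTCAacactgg
Slc1a3 element, gained, chr15:8644494-8644793: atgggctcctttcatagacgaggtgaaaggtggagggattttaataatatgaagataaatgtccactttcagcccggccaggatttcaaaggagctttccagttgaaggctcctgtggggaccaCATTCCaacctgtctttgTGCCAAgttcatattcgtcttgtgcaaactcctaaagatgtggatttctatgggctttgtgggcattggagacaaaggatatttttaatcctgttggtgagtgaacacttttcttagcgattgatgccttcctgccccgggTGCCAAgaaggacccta
Jak2 element, gained in p0-1 NPs, chr19:29216308-29216607: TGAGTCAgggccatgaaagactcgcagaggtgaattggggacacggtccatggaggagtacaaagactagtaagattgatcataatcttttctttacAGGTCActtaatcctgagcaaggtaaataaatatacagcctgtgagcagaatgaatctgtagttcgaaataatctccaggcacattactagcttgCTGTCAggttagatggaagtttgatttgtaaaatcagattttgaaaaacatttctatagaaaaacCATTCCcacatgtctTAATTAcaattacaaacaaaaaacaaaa
Osbpl6 element, lost, chr2:76419629-76419928: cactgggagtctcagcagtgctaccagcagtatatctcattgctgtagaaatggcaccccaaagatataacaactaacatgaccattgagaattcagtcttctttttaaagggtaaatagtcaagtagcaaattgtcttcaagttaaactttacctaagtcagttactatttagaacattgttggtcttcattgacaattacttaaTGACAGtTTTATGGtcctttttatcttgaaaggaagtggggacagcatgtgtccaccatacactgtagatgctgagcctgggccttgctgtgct
C330024C12Rik element, lost, chr17:87198284-87198583: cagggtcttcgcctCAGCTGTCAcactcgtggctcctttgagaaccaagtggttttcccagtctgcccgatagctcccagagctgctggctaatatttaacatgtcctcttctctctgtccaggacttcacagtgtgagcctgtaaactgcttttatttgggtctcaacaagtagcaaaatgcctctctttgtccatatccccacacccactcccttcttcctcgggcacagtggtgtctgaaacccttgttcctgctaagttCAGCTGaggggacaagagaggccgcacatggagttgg
Mnx1 element, lower in p0-1 and higher in pMN at day 5, chr5:29485019-29485318: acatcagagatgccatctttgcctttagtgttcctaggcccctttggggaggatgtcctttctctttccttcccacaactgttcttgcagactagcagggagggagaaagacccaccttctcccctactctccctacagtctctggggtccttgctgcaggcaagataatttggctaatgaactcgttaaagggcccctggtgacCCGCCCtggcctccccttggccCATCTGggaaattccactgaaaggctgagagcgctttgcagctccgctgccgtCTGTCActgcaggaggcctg
The Npas3 window held 3 matches to the nuclear receptor motif AGGTCA, 1 to the SOX motif ACAATGG, 1 to the E-box CAGCTG and 1 to the AP-1 motif TGANTCA, and the Sox3 window held 1 AGGTCA and 1 NFI motif TTGGCA. In the Slc1a3 window there were 2 TTGGCA and 1 TEAD motif GGAATG. The Jak2 window held 1 match each to AGGTCA, the MEIS motif TGACAG, the homeodomain motif TAATTA, the TEAD motif GGAATG and the AP-1 motif TGANTCA. Neither lost element held AGGTCA, which was in only 14.8% of lower and 15.97% of all tested elements. The Osbpl6 window held 1 TGACAG and 1 CDX motif TTTATGG. That of C330024C12Rik held 2 CAGCTG, of which 1 overlapped a TGACAG on the other strand. The Mnx1 window held 1 match each to TGACAG, the E-box CAGATG and the GC box GGGCGG.

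The largest gains started from very few reads at day 4. The element 161994 bp downstream of the TSS of Sox3, a SOXB1 factor of neural progenitors (chrX:60731027-60731846), held 4.35 to 15.3 (median 8.54) at day 4 and 357 to 561 (median 387) at day 5 (log2 fold change 5.66, VST difference 4.54 ± 0.19 SE, adjusted p = 4.14e-09). An intronic element of Npas3, a bHLH-PAS factor of neural development (chr12:53536841-53537259), held 2.94 to 29.0 (median 5.83) at day 4 and 351 to 539 (median 440.3) at day 5 (log2 fold change 5.38, VST difference 4.53 ± 0.25 SE, adjusted p = 2.89e-08). In an intron of Slc1a3, the glutamate transporter GLAST of radial glia (chr15:8644110-8645177), counts were 5.89 to 15.8 (median 11.2) at day 4 and 353 to 609 (median 404) at day 5 (log2 fold change 5.30, VST difference 4.35 ± 0.18 SE, adjusted p = 4.14e-09). In all of these the lowest day 5 sample was more than 10 times the highest day 4 sample. The intergenic element nearest 1700063D05Rik (chr9:41334329-41335306) had 5.44 to 9.79 (median 8.22) at day 4 and 191 to 415 (median 306) at day 5 (log2 fold change 5.26, VST difference 4.05 ± 0.16 SE, adjusted p = 4.14e-09). The element 35346 bp upstream of the TSS of Jak2, a cytokine receptor kinase (chr19:29215889-29217025), had 5.87 to 22.0 (median 7.94) at day 4 and 153 to 573 (median 403) at day 5 (log2 fold change 5.19, VST difference 4.13 ± 0.24 SE, adjusted p = 5.13e-08), and here all 3 samples of 0 nM SAG lay above all 3 of 10 nM at day 5. These nearest genes come from the deposited annotation, and no contact between an element and a gene was measured. The SE and adjusted p treat the 6 samples of a day as independent, although same-numbered ones deviated together. With same-numbered samples averaged, the adjusted p of the Sox3 element was 3.65e-06 by limma.

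The largest losses were of elements that were open at day 4 and nearly closed a day later. An intronic element of Osbpl6, an oxysterol-binding protein family gene (chr2:76419205-76420351), held 95.5 to 328 (median 186) at day 4 and 2.82 to 8.47 (median 6.13) at day 5 (log2 fold change -5.13, VST difference -3.67 ± 0.27 SE, adjusted p = 2.71e-07). The element nearest 5530401A14Rik, in an intron of Asic2 (chr11:81771052-81772118), fell from 84.9 to 448 (median 208) at day 4 to 7.08 to 15.3 (median 12.3), a log2 fold change of -4.32 and adjusted p = 6.96e-06. Its mean in day 3 NMPs was 369 ± 191 (SD, n = 3), so it was also open before neural induction. Near C330024C12Rik (chr17:87197934-87198933) counts were 176 to 359 (median 340.2) at day 4 and 7.08 to 39.0 (median 23.1) at day 5 (log2 fold change -3.71, VST difference -3.20 ± 0.26 SE, adjusted p = 6.25e-07), with an NMP mean of 23.1 ± 6.37. The elements near 1700049E22Rik (chr6:100446867-100448041) and Cys1, which encodes a cilium-associated protein (chr12:24685988-24687069), fell by 3.71 and 3.62 on the log2 scale (adjusted p = 8.98e-08 and 5.81e-07). Their day 4 medians were 505 and 508 against 39.5 and 41.0 at day 5. In none of these 10 elements did a sample of day 4 overlap with a sample of day 5.

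**Figure D2:**
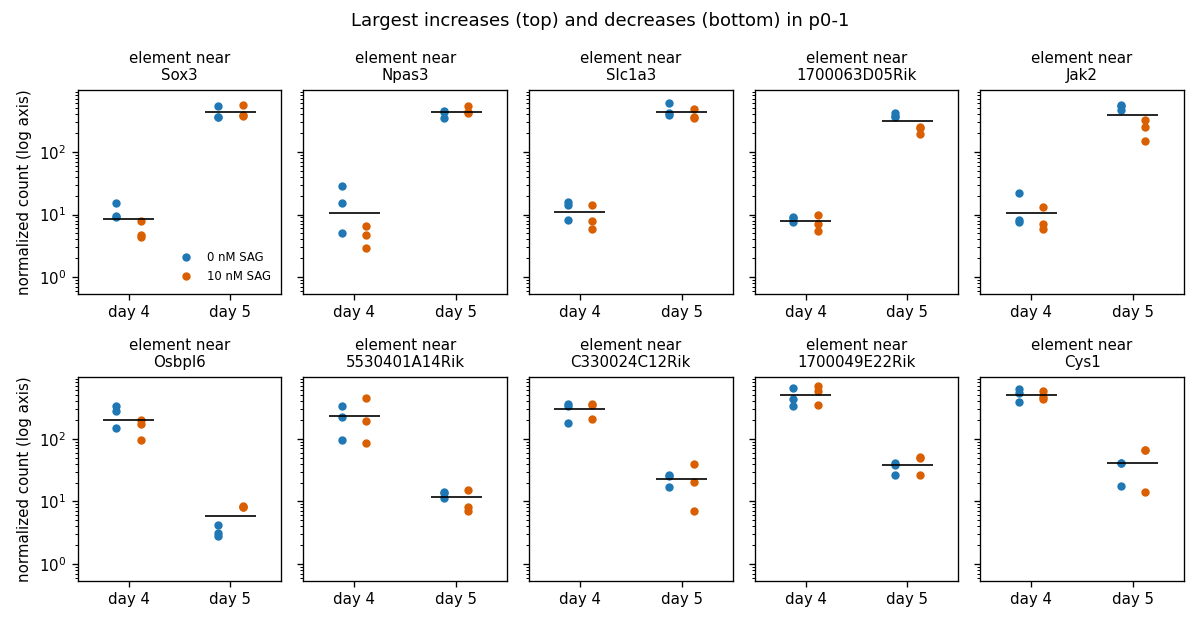
Normalized counts on a log axis in each of the 12 p0-1 samples for the 5 elements with the largest increase (top row) and the 5 with the largest decrease (bottom row), with 0 nM SAG in blue, 10 nM in orange and the mean of the 6 samples of a day as a line. In every panel the samples of day 4 and day 5 are separate.

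The changes lay away from promoters. Of 6967 tested promoter elements (annotated as promoter-TSS), 0.0718% were higher and 0.0144% lower beyond a log2 fold change of 2. In 8960 intergenic elements the shares were 8.40% and 1.00%, and in 10460 intronic elements 4.95% and 0.669%. Elements within 1000 bp of a transcription start site (TSS) were higher in 0.143% of cases, and those more than 200000 bp away in 17.7%. The median distance to the TSS was 80922 bp for higher elements, 32444 bp for lower elements and 7372.5 bp for all tested elements. GC content followed the same order, with 25.2% of 925 elements at up to 40% GC higher and 0 of 6219 above 60%, so position and base composition cannot be told apart here. After the GC correction 4.44% of intergenic elements, 2.75% of intronic ones and 0.0287% of promoter elements were higher, and 1.94%, 1.39% and 0.0718% were lower. The higher elements fell near 1080 genes and the lower ones near 166, with 19 genes in both, out of 16059 genes with a tested element. Caap1, Gria1 (an AMPA receptor subunit) and 4930529K09Rik had the most higher elements, 5 each, and of the 10 tested elements near Gria1 another fell by 2.15 on the log2 scale. C330024C12Rik, Smad1 (a BMP signal transducer) and Vps37b had 2 lower elements each.

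Both sets of elements were low in NMPs: the higher elements stood above their NMP level at day 4 already, and the lower elements were at their highest at day 4. Higher elements had a median of 6.46 normalized counts in day 3 NMPs, 49.8 at day 4, 319 at day 5 and 391 at day 6. Lower elements had 23.1, 262, 44.0 and 19.7. The medians of all tested elements were between 303 and 369. The NMP mean was more than 2 times below the day 4 mean at 1159 of the 1301 higher elements (89.1%) and at 147 of the 169 lower ones (87.0%), against 31.6% of all tested elements. Between days 5 and 6, 1153 of the higher elements stayed within 2 times, 109 were higher and 39 lower by more than that. Of the lower elements 105 (62.1%) were lower by more than another 2 times at day 6 and 0 were higher by that much, against 3.60% and 0.862% of all tested elements. The NMP and day 6 samples did not enter the choice of the elements, but the day 4 and day 5 values in these ratios did, and no test was made.

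**Figure D3:**
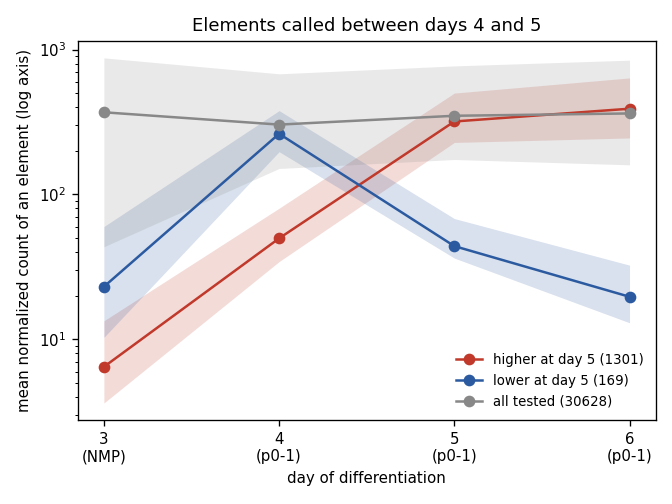
Median normalized count (points, log axis) and quartiles (bands) over the 1301 higher, 169 lower and 30628 tested elements in NMPs at day 3 and p0-1 NPs at days 4, 5 and 6. The higher elements climb from 6.46 to 391, and the lower elements peak at day 4 with 262.

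No call at the limit of 1 was made at the promoters of the genes that define the gate. At the TSS elements of Sox2, Pax6 and Nkx6-1 the day 5 over day 4 log2 fold changes were 0.01, 0.16 and -0.20 (adjusted p = 0.87, 0.163 and 0.224), and those of Sox2 and Pax6 turned negative with centring (-0.18 and -0.042). Pax6 had 2475 to 3781 normalized counts at its TSS at day 4 and 3189.8 to 3572 at day 5. The element at the Nkx6-1 TSS, a gene whose protein the gate excludes, was open as well, with 1121 to 2208 (median 1463) at day 4 and 1114 to 1559 (median 1372) at day 5. That of Olig2, the pMN factor, fell by 0.71 on the log2 scale (adjusted p = 0.00904, and 0.0473 with same-numbered samples averaged), and the neuronal gene Tubb3 had 0.08 (adjusted p = 0.778).

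Elements away from these promoters did change. The element 44180 bp downstream of the TSS of Pax6, in an intron of Elp4 (chr2:105719376-105721243), held 36.5 to 191 (median 133) at day 4 and 540.0 to 1147 (median 835) at day 5, a log2 fold change of 2.81 and adjusted p = 3.55e-05, and 7.81 ± 2.73 in NMPs. An element 2764 bp downstream of the TSS of Sox2 (chr3:34652546-34652973) had 31.3 to 67.5 (median 53.5) at day 4 and 103 to 180.5 (median 163) at day 5 (a log2 fold change of 1.58 and adjusted p = 5.34e-05); after the GC correction its log2 fold change was 0.85, under the limit of 1. The reverse was seen 167285 bp from Nkx6-1 (chr5:101496791-101498062), with 143 to 256 (median 189) at day 4 and 56.7 to 109.9 (median 74.6) at day 5 (a log2 fold change of -1.27 and adjusted p = 6.87e-05). At 51954 bp upstream of Olig2 (chr16:91172837-91174356) counts went up, from a median of 187 to 464 (a log2 fold change of 1.56 and adjusted p = 0.000269), the opposite direction to its TSS. Near the 5 sort markers with tested elements, 6 of 31 tested elements were higher (19.4%) and 1 lower (3.23%) beyond a log2 fold change of 1, with a median of 0.20 against 0.09 for all tested elements. GC-corrected, the counts were 2 and 3. The shares over all tested elements were 12.8% and 3.53%, and 8.31% and 6.07% GC-corrected. They are the background for each gene list below.

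Dorsoventral identity is set by homeodomain and other factors that repress each other across domain borders. Near these genes 19 of 113 tested elements were higher (16.8%) and 4 lower (3.54%) (14 and 8 GC-corrected; median log2 fold change 0.27), beside the 12.8% and 3.53% of all tested elements. Dbx2, a homeodomain gene of p0 and p1, had the largest change, at 47624 bp upstream (chr15:95701820-95702971), with 5.89 to 36.0 (median 17.5) at day 4 and 138 to 329.7 (median 285) at day 5, a log2 fold change of 3.79 and adjusted p = 1.93e-06. Its day 6 mean was 783 ± 190.2 (n = 5). For Irx3, which limits the ventral genes, the element 165751 bp upstream rose from a median of 77.2 to 287 (a log2 fold change of 1.98 and adjusted p = 2e-06), and 401526 bp from Zic1, a zinc-finger factor of dorsal progenitors, from 42.5 to 246 (a log2 fold change of 2.40 and adjusted p = 8.53e-07). An element 59780 bp upstream of Dbx1, the p0 determinant, chosen after its values were seen, had 393 to 1387 (median 861) at day 4 and 1706 to 2109.7 (median 1908) at day 5 (a log2 fold change of 1.15 and adjusted p = 0.000723). In SOXB1 and neural progenitor genes 5 of 44 tested elements were higher (11.4%) and 1 lower (2.27%) (2 and 2 GC-corrected; median 0.36). Beside the Sox3 element, Pou3f4 gained 1 at 3513 bp upstream (35.4 to 186, a log2 fold change of 2.53 and adjusted p = 1.87e-06), whereas Pou3f1, the POU factor of early neural cells, lost accessibility at 23990 bp upstream (144 to 58.7, a log2 fold change of -1.27 and adjusted p = 0.00108, and 0.0095 with same-numbered samples averaged).

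Elements of the late temporal genes Npas3 and Slc1a3 were among the largest gains. Near the late genes 16 of 76 tested elements were higher (21.1%) and 2 lower (2.63%) (8 and 5 GC-corrected; median 0.34). Besides Npas3 and Slc1a3, an intronic element of Sox6, a SOXD factor of progenitors (chr7:115903234-115904164), held 129 to 298 (median 194) at day 4 and 869.7 to 1114 (median 963) at day 5, a log2 fold change of 2.30 and adjusted p = 1.37e-07. In an intron of Nfib, an NFI factor of the late phase (chr4:82489654-82490500), counts were 37.2 to 141 (median 75.8) at day 4 and 339 to 493 (median 440.4) at day 5 (a log2 fold change of 2.29 and adjusted p = 1.13e-05). Near the early genes 5 of 53 tested elements were higher (9.43%) and 3 lower (5.66%), beside 12.8% and 3.53% of all tested elements (5 and 3 GC-corrected; median 0.13). Arid3a and Arid3b, AT-rich interaction domain factors, both lost intronic elements: medians went from 279.9 to 96.0 (a log2 fold change of -1.35 and adjusted p = 0.000214) and from 343 to 96.5 (a log2 fold change of -1.85 and adjusted p = 2.17e-07). The Arid3a element had been at 674 ± 111 in NMPs and the Arid3b element at 53.2 ± 18.8. On the same early list Zfhx3 and Igf2bp2 went the other way, with log2 fold changes of 2.61 and 1.37 (adjusted p = 1.59e-07 and 1.56e-05).

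Genes of the preceding NMP stage had as many higher as lower elements. Near NMP and posterior genes 3 of 30 tested elements were higher (10.0%) and 3 lower (10.0%), beside 12.8% and 3.53% of all tested elements (2 and 3 GC-corrected; median -0.19). The intronic element at Cdx1, a caudal-type factor of posterior identity, was at 2296 ± 141 in NMPs and went from a median of 150.1 to 70.5 (a log2 fold change of -1.12 and adjusted p = 0.00133; 0.0116 with same-numbered samples averaged, which misses the threshold). Sall4, a stem cell zinc-finger factor, lost an intronic element that had been lower in NMPs (177 ± 50.4) than at day 4 (613 to 849 (median 714) at day 4 and 285 to 491 (median 315) at day 5; a log2 fold change of -1.03 and adjusted p = 5.96e-05). An element upstream of Wnt5b, within an intron of Erc1 (chr6:119590648-119591649), rose from 25.5 to 312 (a log2 fold change of 3.45 and adjusted p = 4.16e-07). Pluripotency genes had 3 higher and 3 lower of 16 tested elements (2 and 3 GC-corrected; median -0.22), among them Tfcp2l1 (31.3 to 311, a log2 fold change of 3.24 and adjusted p = 1.95e-07) and Dppa3 (158 to 62.0, a log2 fold change of -1.25 and adjusted p = 1.28e-05).

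Hox genes, with MEIS and PBX proteins as cofactors, encode anterior-posterior position. The background over all tested elements was 12.8% higher and 3.53% lower (8.31% and 6.07% GC-corrected). In the Hox clusters 8 of 57 tested elements were higher (14.04%) and 0 lower (0%) (7 and 1 GC-corrected; median 0.05), and the named gains lay at paralogue group 4 and at Hoxb2. The element 3089 bp upstream of Hoxa4 (chr6:52194437-52195148) held 19.5 to 28.9 (median 24.7) at day 4 and 142 to 391 (median 309.5) at day 5 (a log2 fold change of 3.54 and adjusted p = 4.01e-07), with 20.0 ± 0.956 in NMPs and 1341 ± 404 at day 6. At Hoxc4 (chr15:103029157-103030601) the values were 10.8 to 60.6 (median 42.8) at day 4 and 354 to 526 (median 476) at day 5 (a log2 fold change of 3.59 and adjusted p = 4.26e-07). The broad element 6418 bp downstream of the Hoxb4 TSS (chr11:96322025-96327345) was already at 419.9 to 901 at day 4 and reached 2245 to 3684 (a log2 fold change of 2.19 and adjusted p = 5.5e-07). Nearby Hox genes share elements, so the nearest TSS does not tell which gene an element belongs to. Near MEIS and PBX genes 14 of 56 tested elements were higher (25%) and 2 lower (3.57%) (8 and 2 GC-corrected; median 0.45), with an intronic element of Meis1 among the higher (19.3 to 186, a log2 fold change of 3.61 and adjusted p = 4.77e-07).

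Signalling pathways were represented in both directions, beside 12.8% higher and 3.53% lower over all tested elements (8.31% and 6.07% GC-corrected). Near retinoic acid pathway genes 6 of 56 tested elements were higher (10.7%) and 2 lower (3.57%) (5 and 5 GC-corrected; median 0.08). Here an element 47014 bp upstream of Cyp26b1, which encodes a retinoic acid-degrading enzyme, rose from 29.6 to 166 and to a mean of 1029 ± 322 at day 6 (a log2 fold change of 2.91 and adjusted p = 2.15e-06). Elements near the retinaldehyde reductase gene Dhrs3 and the receptor gene Rxra also rose (log2 fold changes 2.37 and 1.80, adjusted p = 1.85e-06 and 4.47e-08). FGF and ERK feedback genes had 12 higher and 6 lower of 78 (8 and 10 GC-corrected; median 0.13), 7.69% lower against 3.53% of all. An intergenic element 131351 bp from Fgfr2, an FGF receptor gene (chr7:130134380-130136534), held 281 to 699.5 (median 445) at day 4 and 39.5 to 133 (median 95.7) at day 5 (a log2 fold change of -2.35 and adjusted p = 2.14e-05), and 1 near the ERK phosphatase gene Dusp4 fell from 211 to 52.2 (a log2 fold change of -1.88 and adjusted p = 0.000226). Both were nearly closed in NMPs, at 11.2 ± 6.23 and 1.35 ± 2.34. Il17rd, an antagonist of FGF signalling, and Spred2, an inhibitor of the RAS pathway, gained elements (1.89 and 1.90, adjusted p = 6.32e-08 and 0.000109). Another element near Spred2 (chr11:19644259-19645401) went the other way, with p0-1 means of 325 at day 4 and 128 at day 5 (log2 fold change -1.35).

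Near Wnt pathway genes 17 of 92 tested elements were higher (18.5%) and 0 lower (0%) (13 and 4 GC-corrected; median 0.19). Over all tested elements the shares were 12.8% and 3.53% (8.31% and 6.07% GC-corrected). The ligand genes Wnt7b and Wnt5a led, with medians of 68.6 to 435 (a log2 fold change of 2.43 and adjusted p = 6.68e-06) and 75.2 to 383 (a log2 fold change of 2.30 and adjusted p = 4.63e-07), followed by the secreted inhibitor gene Sfrp1 and the effector gene Tcf7l2 (log2 fold changes 2.02 and 1.96). In Hedgehog pathway genes 7 of 43 tested elements were higher (16.3%) and 0 lower (0%) (3 and 4 GC-corrected; median 0.28). The co-receptor gene Gas1 had the largest of these, 30347 bp downstream of its TSS (chr13:60146308-60148069), with 116 to 405 (median 255) at day 4 and 1228 to 1642 (median 1468) at day 5 (a log2 fold change of 2.43 and adjusted p = 2.23e-06). Elements near the co-receptor gene Boc, the receptor gene Ptch1 and the effector gene Gli3 followed (1.66, 1.39 and 1.34; adjusted p = 8.84e-06, 0.0002 and 0.000201), and that of Gli3 was at 0.50 after the GC correction (adjusted p = 0.0159). Near BMP pathway and Id genes 7 of 48 tested elements were higher (14.6%) and 2 lower (4.17%) (7 and 2 GC-corrected; median 0.24), led by the BMP pseudoreceptor gene Bambi (1.99, adjusted p = 2.27e-06). Near TEAD and YAP pathway genes 4 of 28 tested elements were higher (14.3%) and 2 lower (7.14%) (2 and 3 GC-corrected; median 0.17), with the target gene Ccn1 at 119 to 1008 (a log2 fold change of 3.06 and adjusted p = 3.43e-07) and the kinase gene Lats2 at 171 to 51.8 (a log2 fold change of -1.57 and adjusted p = 4.81e-05).

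Notch signalling and proneural factors control when progenitors leave for neuronal differentiation. The background for the counts here was 12.8% higher and 3.53% lower (8.31% and 6.07% GC-corrected). Near Notch pathway genes 7 of 72 tested elements were higher (9.72%) and 1 lower (1.39%) (4 and 1 GC-corrected; median 0.12), led by Rbpj, the DNA-binding effector (31.1 to 164, a log2 fold change of 2.54 and adjusted p = 1.09e-06), and the receptor gene Notch2 (2.00, adjusted p = 9.02e-06). Among proneural genes 8 of 54 tested elements were higher (14.8%) and 1 lower (1.85%) (5 and 1 GC-corrected; median 0.21). At 8310 bp from Neurog2, a proneural bHLH factor, 912 to 1519.9 (median 1151) at day 4 and 393 to 635 (median 485) at day 5 were counted (a log2 fold change of -1.27 and adjusted p = 1.06e-05), and the days did not overlap. For determinants of ventral interneurons 7 of 57 tested elements were higher (12.3%) and 3 lower (5.26%) (4 and 3 GC-corrected; median -0.15), among them a loss 42000 bp from En1, a V1 interneuron gene (194 to 63.8, a log2 fold change of -1.51 and adjusted p = 8.74e-05). Cell cycle regulators had 6 higher and 0 lower of 35 (5 and 1 GC-corrected; median 0.26), with Cdk6 at 2.33 and Ccnd3 at 1.95 (adjusted p = 5.77e-05 and 3.49e-07). Near RFX and ciliary regulators 3 of 29 tested elements were higher (10.3%) and 1 lower (3.45%) (1 and 2 GC-corrected; median 0.17), with the gain at Rfx3, 26.3 to 475, inside an intron of Glis3 (a log2 fold change of 3.84 and adjusted p = 3.22e-08).

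Genes of cell surface and axon guidance proteins had the largest shares. Of 122 tested elements near axon guidance genes 48 were higher and 1 lower, 39.3% and 0.820% against the background of 12.8% and 3.53%, with a median log2 fold change of 0.75. GC-corrected the counts were 27 and 6 and the median 0.21, beside 8.31% and 6.07% of all tested elements. The background was not matched for distance to the TSS, with which the share of higher elements grew. An intronic element of Unc5d, a netrin receptor gene (chr8:28855182-28855869), held 8.23 to 35.1 (median 15.6) at day 4 and 452 to 728 (median 645) at day 5 (a log2 fold change of 5.16 and adjusted p = 1.1e-08). The element 358708 bp from Epha3, an ephrin receptor gene (chr16:63505261-63505674), held 1.18 to 18.4 (median 9.22) at day 4 and 175 to 234 (median 206) at day 5 (a log2 fold change of 4.60 and adjusted p = 1.37e-07). In an intron of the ephrin gene Efna5 (chr17:62777830-62778656) counts were 58.7 to 421 (median 142) at day 4 and 1584 to 1995 (median 1833) at day 5 (a log2 fold change of 3.32 and adjusted p = 7.28e-06), and Dcc, the netrin receptor gene, gained an element with a log2 fold change of 3.76 (adjusted p = 1.11e-07). None of these had overlapping days. Near cadherin genes 19 of 59 tested elements were higher (32.2%) and 3 lower (5.08%) (13 and 8 GC-corrected; median 0.52, and 0.09 GC-corrected), with upstream elements of Cdh12 (13.9 to 232, a log2 fold change of 4.13 and adjusted p = 2.32e-07) and Cdh11 (22.7 to 306, a log2 fold change of 3.76 and adjusted p = 1.07e-06). The Cdh12, Epha3 and Unc5d elements had GC contents of 36.7%, 37.2% and 43.0%, and after the GC correction their log2 fold changes were 2.37, 2.84 and 4.39.

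**Figure D4:**
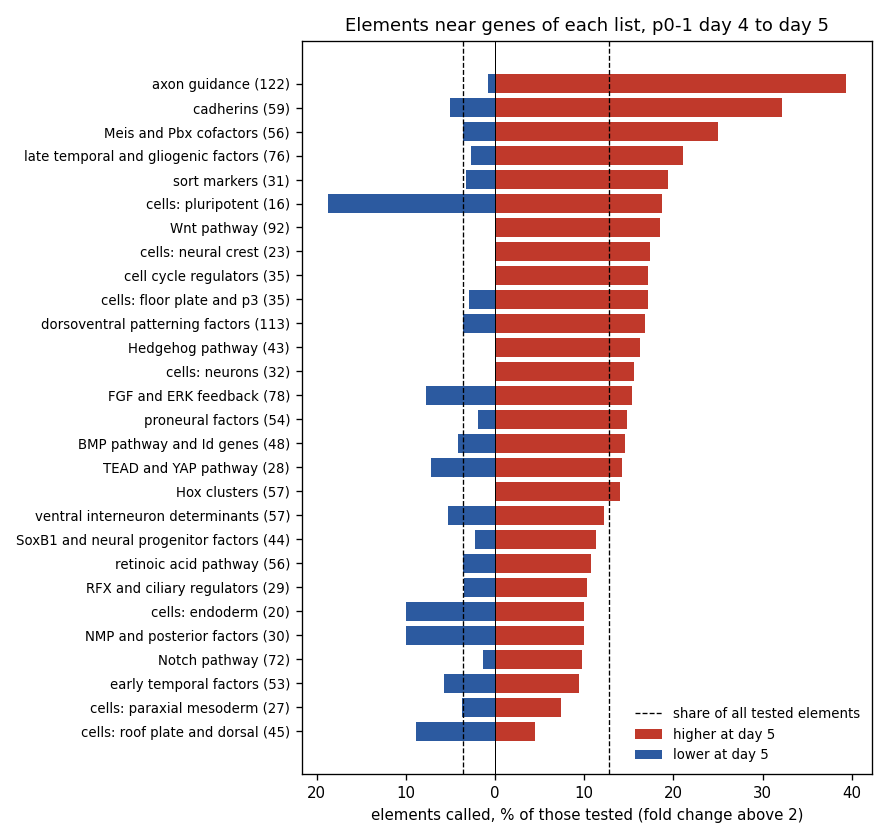
Share of the tested elements near the genes of each list that were higher (red, to the right) or lower (blue, to the left) at day 5 beyond a log2 fold change of 1, with the number of tested elements in brackets. Dashed lines give the shares over all tested elements, 12.8% and 3.53%; axon guidance, with 39.3% higher, is the longest bar.

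Elements near genes of cells that the gate should not hold were followed as well. Of all tested elements 12.8% were higher and 3.53% lower (8.31% and 6.07% GC-corrected). Near neuronal genes 5 of 32 tested elements were higher (15.6%) and 0 lower (0%), near floor plate and p3 genes 6 of 35 and 1, near neural crest genes 4 of 23 and 0, and near paraxial mesoderm genes 2 of 27 and 1. GC-corrected, these were 1 and 0, 4 and 2, 3 and 1 and 2 and 1. The summed level over all tested elements of a list was 12374 to 18889 at day 4 and 16619 to 18689 at day 5 for floor plate and p3 genes, 9187 to 13417 and 10809 to 13156 for neurons, 6655 to 10479 and 9510.2 to 10850.1 for neural crest, and 6861 to 11841 and 8896 to 9997 for paraxial mesoderm. Endoderm genes had 2 higher and 2 lower of 20 tested elements (2 and 2 GC-corrected) and sums of 6809 to 13020.5 and 6124 to 7607. The intronic element of Hnf4a, an endoderm factor (chr2:163560172-163561549), held 175 to 394 (median 296) at day 4 and 19.7 to 69.2 (median 38.3) at day 5 (a log2 fold change of -2.72 and adjusted p = 2.55e-06), with 9.52 ± 2.69 in NMPs, while an element 101256 bp from Sox17 rose from 15.2 to 219 (a log2 fold change of 4.07 and adjusted p = 2.19e-07). Roof plate and dorsal genes had 2 higher and 4 lower of 45 (1 and 4 GC-corrected) and sums of 14748 to 22604 and 18897 to 21519.8. Here intronic and upstream elements of the roof plate factor gene Lmx1a and of the dorsal progenitor gene Olig3 fell from 581 to 105 and from 468 to 169 (log2 fold changes -2.52 and -1.51, adjusted p = 9.45e-07 and 2.09e-06). Every tested element has a mean above 100 normalized counts, so none of these was at 0, and the part of other cells in the day comparison was not tested.

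Of 17 short motifs searched on both strands in the central 300 bp, the nuclear receptor motif AGGTCA had the largest difference in percentage points between higher and all elements of like GC content. It was found in 31.1% of higher, 14.8% of lower and 15.97% of all tested elements. Among elements of 45 to 50% GC (421 higher, 79 lower and 6415 in all), where composition is closer, the shares were 33.3%, 12.7% and 19.7%. The SOX motif ACAATGG was in 9.45%, 10.7% and 5.67%, and in the GC band in 8.79%, 6.33% and 8.89%. The homeodomain motif TAATTA was in 10.9%, 8.88% and 5.18%, and in the band in 10.5%, 7.59% and 8.15%. The FOX motif TGTTTAC was in 3.31%, 8.88% and 2.96%, and in the band in 4.28%, 7.59% and 4.65%. The GC box GGGCGG was in 4.46% and 5.92% against 32.9%, and in the band in 6.18% and 6.33% against 9.17%. For the NFI motif TTGGCA, the MEIS motif TGACAG, the TEAD motif GGAATG and the E-box CAGCTG the shares of higher elements in the band were 16.6%, 24.9%, 22.1% and 22.1%, beside 15.7%, 24.3%, 21.8% and 20.7% of all. The POU octamer ATGCAAAT, the RFX motif GTTGCCA, the HOX-PBX motif TGATTGAT, the CDX motif TTTATGG, the TCF/LEF motif CTTTGAT, the E-box CAGATG, the GLI motif GGGTGGTC and the AP-1 motif TGANTCA had band shares in higher elements of 2.61%, 3.8%, 1.19%, 3.8%, 6.41%, 21.9%, 0.238% and 8.79%, against 2.14%, 4.40%, 1.87%, 4.04%, 4.88%, 22.7%, 0.748% and 8.34% of all. These are matches of letters and no binding was measured.

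Whether the day change depended on SAG was asked by an interaction between day and concentration. Without a block no element was called, at a smallest adjusted p of 0.596 by limma (0.0%; 2540 of 30628 elements had an unadjusted p under 0.05). Same-numbered samples of a day deviated together, and with a replicate block within each day 380 elements (1.24%) were called. Of these, 376 had the higher day change at 10 nM, which is a larger rise or a smaller fall. With the GC correction and the block together the count was 658, 563 of them with the higher day change at 10 nM. Of the 380, 200 were among the 658. The 380 elements had a median GC content of 45.1%, and their median log2 fold change was 0.26 at 0 nM and 1.63 at 10 nM. The elements near Wnt3a and Cdon given next are exceptions, among the 4 of the 380 with the lower day change at 10 nM. The element 26286 bp from Wnt3a, a ligand gene of the dorsal midline (chr11:59263578-59265352), went from 364 ± 146 to 842 ± 254 at 0 nM and from 337 ± 143 to 233 ± 19.3 at 10 nM (mean ± SD, n = 3; adjusted p = 0.00633 with the block and 0.596 without). Near Cdon, a Shh co-receptor gene, counts went from 426 ± 56.05 to 941 ± 326 at 0 nM and from 329 ± 61.7 to 295 ± 38.9 at 10 nM (adjusted p = 0.00851 with the block and 0.596 without). The Dbx1 element named above went from 1058 ± 335 to 1734 ± 29.8 at 0 nM and from 663 ± 312 to 2074 ± 31.5 at 10 nM, and an element 8798 bp from Nkx6-1 from 325 ± 32.3 to 93.6 ± 21.2 at 0 nM and from 387 ± 74.3 to 291 ± 2.17 at 10 nM (adjusted p = 0.00799 and 0.00949 with the block, 0.596 for both without; with the GC correction and the block the Nkx6-1 element was at 0.0153, which misses the threshold). In the Nkx6-1 element the 10 nM samples of day 5 were higher than those at 0 nM, while at day 4 the means lay within 74.3 counts, the SD of the 10 nM samples.

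The day change of p0-1 NPs was then set against that of p2, pMN and p3 NPs over the same days. Most of the called elements that could also be tested with another type moved alike. A contrast tested only elements that averaged more than 100 normalized counts over the samples of both types. Elements that stayed low in the other type were more likely to drop out, so these shares favour a like direction. Of the 1301 higher elements, all 1187 that could be tested with p2 had a positive log2 fold change there, with a median of 2.34 (2.54 in p0-1). So did all 1082 in pMN (median 2.20, beside 2.53) and 955 of 963 in p3 (1.88, beside 2.53). Of the lower elements 154 of 155, 149 of 150 and 139 of 141 had a negative one in p2, pMN and p3 (medians -2.03, -1.70 and -1.45). The change itself differed from that in p2 at 10 elements above and 25 below (0.0323% and 0.0807% of 30971), from pMN at 195 and 477 (0.63% and 1.54% of 30951) and from p3 at 762 and 391 (2.49% and 1.28% of 30580), at an adjusted p under 0.01 and a difference in log2 fold change above 1. With a replicate block within each day the counts were 146 and 271 against p2 (1.35% in both directions), 541 and 659 against pMN (3.88%) and 1074 and 629 against p3 (5.57%). With the GC correction and no block they were 23 and 69, 196 and 651, and 950 and 624. Among the higher elements above, without block or correction, the rise was called larger in p0-1 at 3 (p2), 62 (pMN) and 241 of 963 (p3). It was called smaller at 0, 3 and 1. Among the lower elements the fall was called larger in p0-1 at 2, 13 and 26 of 141, and smaller at 0 of each. These elements were chosen by their change in p0-1, which favours a larger change there. The p0-1 samples came from 0 and 10 nM SAG, p2 from 10 and 100 nM, and pMN and p3 from 100 and 500 nM, so for pMN and p3 cell type and SAG concentration cannot be told apart. Both p0-1 and p2 were sampled at 10 nM, and with only these samples (3 for each day and type) no element was called by limma (0.0% of 31136, at a smallest adjusted p of 0.45, and 0.0224 with the block). There 2692 elements had an unadjusted p under 0.05 (7232 with the block), and all 32 of the 35 elements called with all samples that could be tested kept their direction. These counts rested on single libraries too: without single samples they ran from 5 to 103 for p2 (11 of the 12 p0-1 samples moved them by over 1.5 times, the exception being day 4 10 nM replicate 3), and without day 4 10 nM replicate 1 they were 1241 for pMN and 1743 for p3.

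The Jak2 element had the largest difference, among called elements, to each of the 3 other types. It held 5.06 to 15.8 (median 9.57) at day 4 and 29.1 to 72.9 (median 40.9) at day 5 in p2 (n = 6 and 6), 4.26 to 13.95 (median 7.13) at day 4 and 8.88 to 20.2 (median 11.3) at day 5 in pMN (n = 6 and 5) and 4.04 to 7.89 (median 5.06) at day 4 and 4.87 to 19.1 (median 9.67) at day 5 in p3 (n = 5 and 5), where p0-1 had 5.87 to 22.0 and 153 to 573. Every day 5 p0-1 sample was above every sample of the other types, with a difference of 3.04 in log2 fold change, p0-1 minus p2 (adjusted p = 0.000239, and 3.55e-07 with the block). At 10 nM and day 5 the samples were at 153 to 329 in p0-1 and 33.4 to 72.9 in p2 (n = 3 each). The differences were 4.29 and 4.32 for pMN and p3 (adjusted p = 2.76e-06 and 4.62e-06). The element 6698 bp upstream of the TSS of Mnx1, a motor neuron determinant gene (chr5:29484063-29486273), held 58.8 to 123 at day 4 and 28.3 to 38.3 at day 5 in p0-1. In pMN it held 62.9 to 86.0 (median 74.4) at day 4 and 134 to 331 (median 284) at day 5. The difference was -2.99 in log2 fold change, p0-1 minus pMN (adjusted p = 5.3e-06 by limma, and 4.93e-07 with the block). The medians of p2 and p3 at this element were also lower at day 5, from 71.2 to 52.4 and from 47.6 to 41.5. In both of these types the days overlapped. In an intron of Grin2a, an NMDA receptor subunit gene (chr16:9700944-9701694), p0-1 had 41.1 to 246 (median 125) at day 4 and 236 to 740.1 (median 356) at day 5, and pMN 42.9 to 80.1 (median 49.6) at day 4 and 14.2 to 44.4 (median 37.0) at day 5 (a difference of 2.21 in log2 fold change, p0-1 minus pMN (adjusted p = 0.0031, and 2.2e-05 with the block)). An intronic element of Sigirr, a receptor gene of the interleukin family, fell in p0-1 by 2.19 on the log2 scale and had 0.83 in pMN (a difference of -3.02 in log2 fold change, p0-1 minus pMN (adjusted p = 4.55e-05, and 2.89e-07 with the block)).

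The Nkx6-1 element that fell in p0-1 had a higher mean at day 5 in p2, pMN and p3. Mean counts went from 193 to 80.0 in p0-1 and 216 to 293 in p2, adjusted p = 0.00598 and 2.11e-05 with the block; from 193 to 80.0 in p0-1 and 191 to 397 in pMN, adjusted p = 8.75e-06 and 6.4e-07 with the block; and from 193 to 80.0 in p0-1 and 287 to 642 in p3, adjusted p = 4.62e-06 and 1.99e-06 with the block. With only 10 nM samples the difference of this Nkx6-1 element to p2 was -1.85 in log2 fold change (adjusted p = 0.45, and 0.025 with the block). The p0-1 gate excludes the protein of this gene, whereas cells of p2, pMN and p3 carry it. The contrasts at the Nkx6-1 element are therefore not independent of the sorting, and the part of the gates in them was not tested. The Cdon element 79525 bp upstream (chr9:35371997-35373105), chosen after its values were seen, is that of the SAG interaction. Here p0-1 held 271 to 488 (median 387) at day 4 and 252 to 1269.6 (median 473) at day 5, with no call for the day (a log2 fold change of 0.71 and adjusted p = 0.14), and its 3 highest samples at day 5 were those of 0 nM SAG. Its log2 fold change was 1.14 with only 0 nM samples and -0.16 with only 10 nM samples. At 10 nM, where p2 was sampled too, its means went from 329 to 295 in p0-1 and from 212 to 89.2 in p2. With only these samples the difference of this element to p2 was 1.10 in log2 fold change (adjusted p = 0.527 by limma, and 0.0385 with the block). In the other types its mean was lower at day 5, going from 377 to 618 in p0-1 and 193 to 87.9 in p2, adjusted p = 0.00595 and 1.11e-05 with the block; from 377 to 618 in p0-1 and 108 to 38.4 in pMN, adjusted p = 0.000126 and 1.13e-05 with the block; and from 377 to 618 in p0-1 and 130.3 to 70.5 in p3, adjusted p = 0.00161 and 0.000934 with the block. The Slc1a3 gain of p0-1 was smaller in p3, with means going from 11.1 to 436 in p0-1 and 12.1 to 91.8 in p3, adjusted p = 4.25e-05 and 3.35e-05 with the block. A Gli3 intron element (157466 bp) had a higher mean at day 5 in p0-1 and a lower one in p3, going from 112 to 265 in p0-1 and 42.3 to 19.1 in p3, adjusted p = 6.23e-05 and 7.85e-05 with the block.

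**Figure D5:**
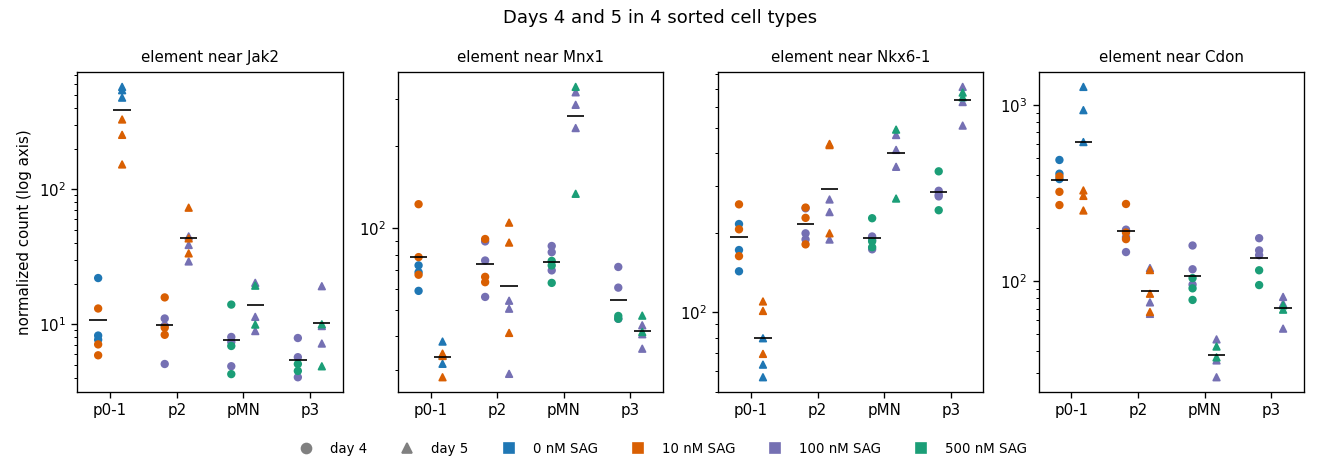
Normalized counts on log axes at day 4 (circles) and day 5 (triangles) in each sample of p0-1, p2, pMN and p3 NPs, for elements near Jak2, Mnx1, Nkx6-1 and Cdon, with colours for the SAG concentration and lines for the means. At the Jak2 element only the day 5 p0-1 samples lie above 100, at 153 to 573, and at the Nkx6-1 element the mean is lower at day 5 in p0-1 and higher in the other types.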

How the data were processed

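ATAC-seq of fixed and sorted cells was available for 67 samples, of which the 12 p0-1 samples of days 4 and 5 were compared. Reads had been mapped to mm10 by the authors and peaks called with MACS, and the counts of consensus elements were deposited on a log2 scale, after the variance-stabilizing transformation (VST) of DESeq2. The deposited annotation gives the coordinates, class and nearest gene of each element. The transformation was inverted to normalized counts, and 100% of the recovered values below 1000 reads in every sample were whole to within 1e-06. Depth was 15763186 to 28424039 reads in elements, and its number limits the precision of low elements.

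The VST values were fitted with limma 3.58.1 in R 4.3.3, with day and SAG concentration as terms and a variance trend, over elements that averaged more than 100 normalized counts in the fitted samples. P-values were adjusted over all tested elements by the method of Benjamini and Hochberg. Calls between days required an absolute log2 ratio of mean normalized counts above 2, at an adjusted p under 0.01, or above 1 for gene lists and contrasts of day changes between cell types. The SAG by day interaction was called at an adjusted p under 0.01. The VST difference and its SE are on the transformed scale, which understates changes of low elements. Fits of the day change without averaging treat the samples of a day as independent. Their SE and p-values can therefore be too small where same-numbered samples deviate together. The GC correction subtracted from each sample a lowess curve (span 0.3) of its deviations against GC content. Fits were tested on simulated data.

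Replicate numbers are those of the labels, and the study describes replicates as independent differentiations. Between days, deviations of same-numbered samples had r of -0.061 to 0.48 (6 pairs). Within a day, p0-1 samples of 0 and 10 nM with the same number had r of 0.38 to 0.84 at day 4 and 0.62 to 0.76 at day 5 (3 pairs each), and p0-1 and p2 or pMN samples had r of 0.29 to 0.89 at day 4 and 0.43 to 0.73 at day 5. The numbers were therefore taken to pair samples within a day, from the data and not the labels, and blocked values stand beside those results. With p3, r ran from -0.45 to 0.58 at day 4.

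Named elements were the 5 largest changes in each direction, up to 4 called elements of each gene list (1 for each gene), the genes with most called elements, the 2 largest differences in each direction in each contrast with another cell type, and the TSS elements of the sort markers. A tie at 4 elements left unnamed 6 genes below the 3 named for gains. The text gives a part of the gene list elements. The samples and the lists were chosen with earlier results of these data known. Motifs were searched in windows of 300 bp of GRCm38. Elements near some sort marker and progenitor genes were not analysed here. Some elements that the rule names are not reported here.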

Additional observations from a re-analysis of the deposited data

Results flagged for a closer look

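Groups of 6 samples were the named elements on each day and, for each day, the sample medians, GC correlations and read depths. In 8 of 240 groups, all of named elements, the highest sample lay far from the others (a gap to its neighbour of more than 0.625 of the range of the group, which chance gives in about 1 in 20 groups). At day 4 these were the Arid3b element in 10 nM replicate 2 (446 normalized counts), the Ebf1 element in 0 nM replicate 1 (84.3) and the Mycn element in 10 nM replicate 3 (125). At day 5, 0 nM replicate 3 was far above the others at the elements of Rbpj (279), Nefm (269), Pax7 (385) and Grin2a (740.1), and 10 nM replicate 3 at that of En1 (118). Of these, the Pax7 element was at an adjusted p of 0.0262 with same-numbered samples averaged.

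The day change differed between p0-1 and another NP type at these elements, as the difference in log2 fold change, p0-1 minus the other type. Against p2 it was 3.04 at Jak2, 2.12 at Mir5118, -2.32 at 4930459C07Rik and -2.01 at Gm10538. Against pMN it was 4.29 at Jak2, 2.21 at Grin2a, -3.02 at Sigirr and -2.99 at Mnx1. Against p3 it was 4.32 at Jak2, 3.95 at 1700017G19Rik, -2.93 at BB014433 and -2.86 at Mir466f-4. For pMN and p3, cell type and SAG concentration cannot be told apart. With only 10 nM samples the differences to p2 were -2.41 at 4930459C07Rik and -2.37 at Gm10538 (adjusted p = 0.45 for both), and Jak2 and Mir5118 were under the filter on the mean.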

How the results depend on the processing

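Of 117 named elements 111 were called for the day change, which had 26 alternatives. Over these day changes and the named differences between cell types together, 31 results missed the threshold under at least 1 alternative. With only 0 nM samples 16 missed it, and with the GC correction 13. Without the filter on the mean, the counts beyond a log2 fold change of 2 were 7380 (5742 higher, 1638 lower) and beyond 1 were 25742 (16874 and 8868), and the contrasts had 470 (p2), 6163 (pMN) and 5936 (p3) calls. The GC correction gave 707 higher and 335 lower beyond 2, 2545 and 1858 beyond 1, and 92 for p2. Only 10 nM samples gave 2009 higher beyond 2 and 659 lower beyond 1, only 0 nM samples 270 lower beyond 2, and centring 1763 lower beyond 1. The cause was not tested.

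A replicate block across days left the calls beyond 2 at 1301 higher and 169 lower, and gave 3963 and 1082 beyond 1, 290 for p2 and 1109 for pMN. The replicate block within each day gave 380 for the SAG interaction, 417 for p2, 1200 for pMN and 1703 for p3, and with the GC correction 658, 475, 1241 and 2089. With only 10 nM samples the contrast with p2 had 0 calls, with and without this block. With same-numbered samples averaged, 3730 were higher and 975 lower beyond 1, and 3 of the called named elements missed the threshold.

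Leaving out each p0-1 sample in turn gave 1301 to 1826 calls beyond 2 (1165 to 1666 higher, 130 to 206 lower), 4519 to 5567 beyond 1 (3477 to 4408 and 915 to 1198), 0 for the SAG interaction, 5 to 103 for p2, 557 to 1241 for pMN and 803 to 1743 for p3.

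Directions reversed at 4 elements that were not called. The Sox2 TSS element had -0.037 with only 10 nM samples, -0.18 with centring and -0.057, -0.056, -0.029, -0.0039, -0.014 and -0.0029 without single samples (range -0.057 to 0.12). The Pax6 TSS element had -0.042 with centring, and the Tubb3 TSS element -0.099 with only 10 nM samples, -0.12 with centring and -0.0066 and -0.0038 without single samples (range -0.0066 to 0.20). The Cdon element had -0.16 with only 10 nM samples and 1.14 with only 0 nM, where it was called. Chosen after seeing the data were the replicate block within each day, alone and with the GC correction, the GC correction of the SAG interaction and of the contrasts between cell types, the averages, the fits without both day 4 replicate 3 samples and the contrast with p2 at 10 nM.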

Other observations

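Some elements had their highest level at day 5 or continued to change after it. An element 2722 bp upstream of Meox1, a mesodermal homeobox gene, had 213 to 459.7 (median 276) at day 4 and 864 to 1249 (median 995) at day 5 and a mean of 348 ± 139 (SD, n = 5) at day 6. At the Rbpj element the day 6 mean was 72.2 ± 43.2, beside a day 5 median of 164. Near Shh and Foxa2, genes of the floor plate, 1 element each of those tested is named here, and both rose in these PAX6+ NKX6.1- samples, from medians of 188 to 769 and from 258 to 889 (log2 fold changes 1.89 and 1.74, adjusted p = 5.18e-07 and 0.000447). The TSS element of Foxa2 had a log2 fold change of -0.92 (adjusted p = 0.00565), under the limit of 1, and the floor plate and p3 list had a median of -0.016. The element of 1700017G19Rik rose nearly alike in p0-1 and p2 (log2 fold changes 4.90 and 4.71, adjusted p of the difference 0.72) and had 0.96 in p3.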
